A study of Mus musculus with 18 samples.

Results

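The miRNA content of Neuro2A cells expressing TBP with 16 glutamines was compared between 36 h and 24 h after transfection. Neuro2A is a mouse neuroblastoma cell line, and TBP, the TATA-binding protein, is a general transcription factor whose glutamine tract is expanded in spinocerebellar ataxia type 17. The cells received a fusion of TBP and green fluorescent protein (GFP) by Amaxa nucleofection. The comparison used 6 of the 18 arrays, chosen by their labels: 3 replicates of 16Q-TBP at 24 h and 3 at 36 h. The other arrays hold 16Q-TBP at 60 h and a fusion with 59 glutamines (59Q-TBP) at 24, 36 and 60 h, 3 each. Every group carries a TBP-GFP fusion, and cells without one were not analysed here. Total RNA was extracted with Trizol, labelled with Cy3 and hybridised to Agilent mouse miRNA arrays, 1 sample per array. The labels give the strain as A for all groups and call the replicates biological. Nothing in them states separate cultures, and p-values therefore reflect only how far these samples vary.

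miRNAs are short RNAs cut from hairpin precursors by Drosha and Dicer and loaded into Argonaute proteins. They pair with messenger RNAs mainly through the seed near their 5′ end and lower the stability or translation of those messages. Related miRNAs that share a seed can act on overlapping targets, and miRNAs of a cluster are often cut from a common transcript.

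Sequences are given for the miRNAs on which the comparison turns, from RefSeq (GRCm38.p6), 5′ to 3′, with the seed (bases 2 to 8) in capitals. Array names without an arm were paired with the RefSeq arm by hand. The first set holds the entries of the transcript that holds miR-199a and miR-214 and the hypoxia- and NF-kB-responsive miRNAs, several of which lead the comparison:
miR-214: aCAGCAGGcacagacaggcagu
miR-214*: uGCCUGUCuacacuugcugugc
miR-199a-5p: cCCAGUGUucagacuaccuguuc
miR-199a-3p: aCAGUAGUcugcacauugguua
miR-146a: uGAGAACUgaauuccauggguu
miR-210: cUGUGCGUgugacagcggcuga
miR-214 lies at chr1:162223438-162223459 on the plus strand and miR-199a-5p at chr1:162217844-162217866 on the plus strand. Both lie within Dnm3os, a non-coding RNA gene inside Dnm3. A further copy of miR-199a-5p lies at chr9:21496537-21496559 on the minus strand, within Dnm2. miR-146a lies at chr11:43374435-43374456 on the minus strand and miR-210 at chr7:141221407-141221428 on the minus strand.

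The second set shows that miR-721, an entry that was higher at 36 h, has the seed of miR-130a and miR-130b, which were among the 8 smallest p-values for the difference between constructs. miR-680 had the second largest log2 difference of all entries tested:
miR-680: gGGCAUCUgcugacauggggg
miR-721: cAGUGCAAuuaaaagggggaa
miR-130a: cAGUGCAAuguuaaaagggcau
miR-130b: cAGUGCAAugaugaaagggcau
The third set holds the miR-29 family, whose members share the seed AGCACCA and are set against 59Q-TBP:
miR-29a: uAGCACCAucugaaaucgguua
miR-29b: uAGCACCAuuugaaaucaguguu
miR-29c: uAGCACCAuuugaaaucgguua
No sequence is printed for miR-689, miR-450a-3p or miR-720.

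Levels are log2 values of the processed array signal after each array was scaled, floored at a log2 value near -4.11. Of 566 mouse entries, 226 were bright enough to be tested. Between 28.7% and 35.0% of mouse probes cleared background at 24 h and 22.4% to 25.4% at 36 h. The signal used for scaling, the 75th percentile of probes bright on all arrays, was 216 to 331 at 24 h and 132 to 195 at 36 h, so the raw signal was lower at 36 h on every array. Of 14 neuronal marker entries, miR-138, miR-149, miR-212 and miR-7a were well above background on all 6 arrays, and miR-9, miR-9*, miR-7b, miR-129-3p and miR-129-5p on none. The rest, miR-124, miR-132, miR-137, miR-153 and miR-218, were so on some arrays, each on more at 24 h than at 36 h. The joint entry of miR-128a and miR-128b, a neuronal marker not counted in these 14, was so on 2 arrays at 24 h and none at 36 h. Of 25 marker entries of other cell types, 20 were above background on none of the 6 arrays and only miR-143 and miR-338-3p on all of them.

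The 24 h arrays were not alike. Replicates 1 and 2 at 24 h correlated at r = 0.984 with each other over the 226 miRNAs, and at 0.804 and 0.821 with replicate 3. Replicate 3 at 24 h correlated at 0.924 to 0.968 with the 36 h arrays, and the 36 h arrays at 0.919 to 0.978 with each other. The median SD over miRNAs was 0.44 at 24 h and 0.25 at 36 h, and 178 of 226 miRNAs had the larger SD at 24 h. Small-RNA control probes moved with this split: the mean log2 scaled signal of the 24 probes above background on all 6 arrays was 1.26, 1.39 and 2.53 at 24 h and 2.64, 2.08 and 2.01 at 36 h. Replicates 1 and 2 at 24 h were the low arrays. The part of the control-probe difference in the results was not tested, and the leading results are also given without replicate 3 at 24 h or without replicates 1 and 2. All 24 h arrays and replicates 1 and 2 at 36 h lay on the same slide, and replicate 3 at 36 h lay on a second slide, where 5.22% of its spots carried an outlier flag against 1.73% to 2.10% on the other arrays of the comparison. Values within the first slide are given beside those of the leading miRNAs and of several lists.

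**Figure D1:**
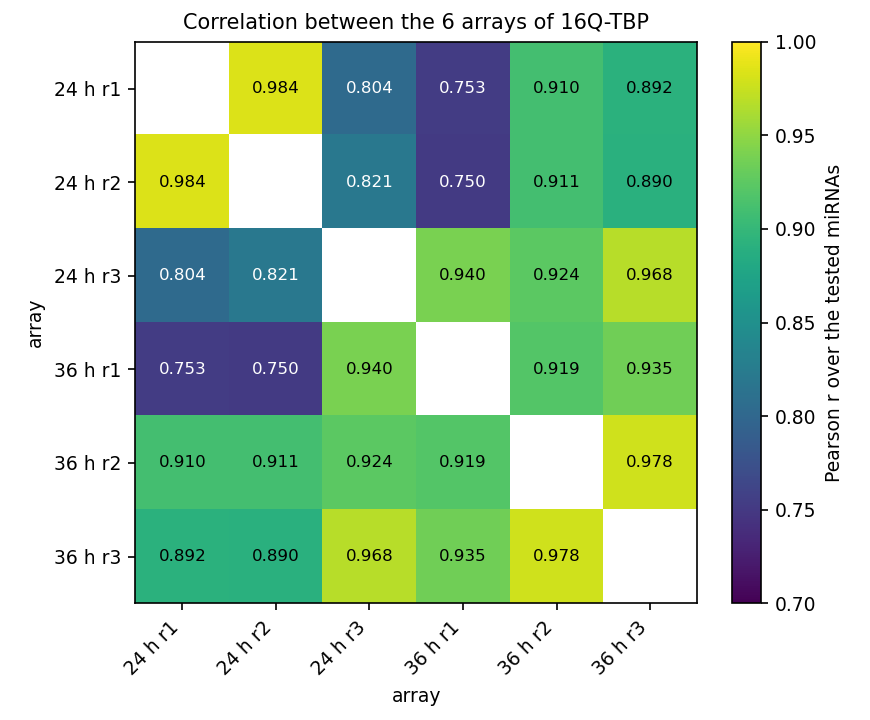
Pearson correlation between the 6 arrays of 16Q-TBP over the 226 miRNAs tested, for replicates (r) 1 to 3 at 24 h and 36 h on both axes, with colour running from 0.7 to 1. Replicates 1 and 2 at 24 h stand at 0.984 with each other and at 0.804 and 0.821 with replicate 3, which stands at 0.924 to 0.968 with the 36 h arrays.

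The main comparison asked which miRNAs differ between 24 h and 36 h. miR-214, miR-199a-5p, miR-146a and miR-210 had higher mean levels at 36 h, with every 36 h array above every 24 h array, by log2 differences of 0.73 to 0.999. With no scaling between arrays these 4 differences were 0.068 to 0.16. None of them, and none of the 226 miRNAs (0%), passed limma's adjusted p of 0.05. The 5 smallest p-values were those of miR-214, miR-146a, miR-199a-5p, miR-689 and miR-450a-3p. Without replicates 1 and 2 at 24 h the differences of miR-689 and miR-450a-3p were 0.32 and 0.16. Those of miR-214, miR-199a-5p, miR-146a and miR-210 were then 0.48 to 0.67. At an unadjusted p under 0.05 there were 26 miRNAs (11.5%), and all 26 were higher at 36 h. All 36 h arrays lay above every 24 h array for 24 miRNAs (10.6%) and below for 5 (2.21%). Over all 226 miRNAs, 139 had a higher mean at 36 h (61.5%) and 86 a lower one, with a median log2 difference of 0.15. The 95% interval of a miRNA's difference typically reached 0.82 on either side on the log2 scale with 3 arrays a group. In these bulk RNA samples a change in the share of transfected cells and a change in level per cell cannot be told apart.

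miR-214, cut from the transcript Dnm3os, had the smallest p-value of the comparison. This miRNA, known in mouse for roles in skeletal and muscle development, had log2 scaled signals of -1.61, -1.62 and -1.15 on the 24 h arrays and -0.42, -0.48 and -0.54 on the 36 h arrays. All 36 h arrays were higher than all 24 h arrays, and the mean difference was 0.98 (SE 0.23, limma adjusted p = 0.125), 1.97-fold, with a 95% interval of 0.50 to 1.46. Both of its probes were higher at 36 h, and an exact two-sided permutation test gave p = 0.1, the smallest possible for 3 against 3. Within the first slide the difference was 1.01, and without replicates 1 and 2 at 24 h it was 0.67. With no scaling between arrays it was 0.14, 0.12 for the deposited values and with normexp correction 0.58.

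miR-199a-5p, cut from the same transcript and from a second copy in Dnm2, had log2 scaled signals of -1.02, -0.77 and -0.24 on the 24 h arrays and 0.47, 0.020 and 0.22 on the 36 h arrays. The groups did not overlap, and replicate 3 was the highest array at 24 h. The difference was 0.91 (SE 0.27, limma adjusted p = 0.167), 0.92 within the first slide and 0.48 without replicates 1 and 2 at 24 h. It was 0.068 unscaled, 0.083 in the deposited table and 0.61 with normexp correction. The strand partner miR-214*, measured with 1 probe near the floor, had log2 scaled signals of -3.99, -3.92 and -3.67 on the 24 h arrays and -3.20, -3.12 and -3.03 on the 36 h arrays. These groups did not overlap either, and the difference was 0.74 (SE 0.27, limma adjusted p = 0.246). miR-199b* stood at -1.63, -1.55 and -1.01 on the 24 h arrays and -0.54, -0.82 and -0.46 on the 36 h arrays on the log2 scale. Its 36 h arrays were all above its 24 h arrays, with a difference of 0.79 (SE 0.28, limma adjusted p = 0.246). Unscaled, the differences of miR-214* and miR-199b* were -0.10 and -0.054. The probes shared by miR-199b and miR-199a-3p behaved otherwise: their log2 scaled signals were -2.35, -2.08 and -1.85 on the 24 h arrays and -2.19, -2.29 and -1.71 on the 36 h arrays. These groups overlapped, and the difference was 0.029, with a 95% interval of -1.46 to 1.52.

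In the list of miR-199 and miR-214, 4 of 4 tested entries were higher at 36 h (61.5% over all miRNAs), none passed the adjusted threshold (0%), 3 had an unadjusted p under 0.05 (11.5% over all), and the median log2 difference was 0.85 against 0.15 over all miRNAs. The mean level of the list was -1.65, -1.50 and -1.06 on the 24 h arrays and -0.67, -0.89 and -0.62 on the 36 h arrays, so every 36 h array was above every 24 h array. With no scaling between arrays the median of the list was 0.0068 while that of all miRNAs was -0.60. In the deposited table, also unscaled, these medians were 0.046 and -0.33. In each of these settings the median of the list lay above that of all miRNAs. The entry of miR-199b and miR-199a-3p, with 0.029 in the main setting, lay below the 0.15 of all miRNAs.

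Among miRNAs known to respond to hypoxia, NF-kB or stress, miR-146a and miR-210 were higher at 36 h. miR-146a, which NF-kB induces and which represses Traf6 and Irak1, had log2 scaled signals of -2.64, -2.27 and -1.81 on the 24 h arrays and -1.24, -1.25 and -1.23 on the 36 h arrays. The 36 h arrays lay within a narrow range above all 24 h arrays, and the difference was 0.999 (SE 0.28, limma adjusted p = 0.167), with 0.996 within the first slide and 0.57 without replicates 1 and 2 at 24 h. Unscaled it was 0.15, 0.13 for the deposited values and with normexp correction 0.45. miR-210, a target of hypoxia-inducible factor, had log2 scaled signals of -3.95, -3.79 and -3.56 on the 24 h arrays and -2.76, -3.28 and -3.06 on the 36 h arrays. The groups did not overlap, although the 24 h arrays lay close to the floor, and the difference was 0.73 (SE 0.25, limma adjusted p = 0.246), 1.66-fold. It was 0.74 within the first slide and 0.52 without replicates 1 and 2 at 24 h. Unscaled it was 0.16, 0.080 for the deposited values and with normexp correction 0.25, and with a floor 4 times higher all 6 of its values lay at the floor and the difference was 0. Of the other tested entries, miR-155, an immune-response miRNA at or near the floor, differed by 0.22. miR-21, known for repressing Pdcd4, differed by -0.45 with a 95% interval of -2.36 to 1.47. In all, 3 of 4 entries of the list were higher, none passed, and the median log2 difference was 0.47, and 0 with a floor 4 times higher.

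**Figure D2:**
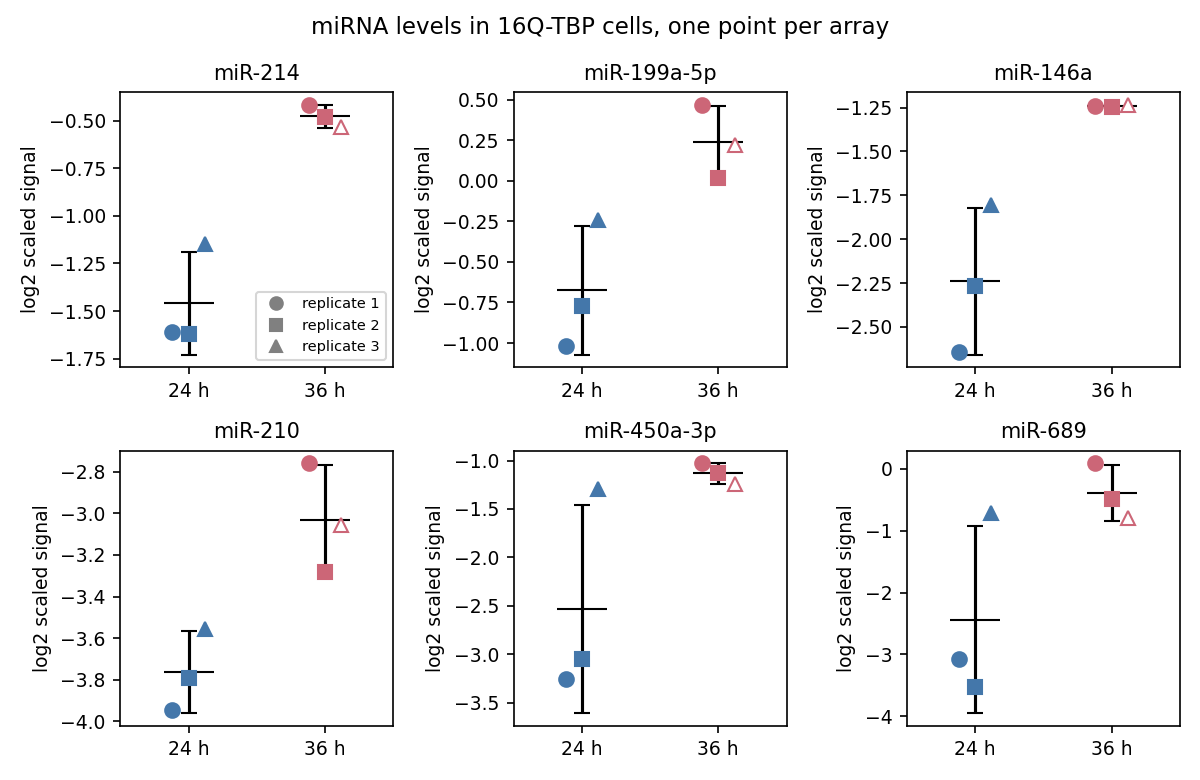
Log2 scaled signal of 6 miRNAs on each 16Q-TBP array at 24 h and 36 h, with the mean (horizontal bar) and SD (whiskers) of 3 replicates, marked by symbol; each panel has its own axis, and the open symbol is the 36 h array on the second slide. The 36 h arrays lie above all 24 h arrays except for miR-689, and replicate 3 is the highest 24 h array in every panel.

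The entries numbered from miR-680 to miR-721 held the largest difference of all, that of miR-689. Differences above 1 also belonged to entries outside this range, among them miR-671-5p, miR-188-5p and miR-450a-3p. One entry of the range, miR-720, has since been reclassified as a fragment of transfer RNA. miR-689 had log2 scaled signals of -3.08, -3.53 and -0.72 on the 24 h arrays and 0.096, -0.49 and -0.79 on the 36 h arrays. Replicate 3 at 24 h lay above 1 of the 36 h arrays, so the groups overlapped, and the difference was 2.05 (SE 0.60, limma adjusted p = 0.167), 4.13-fold. Without replicates 1 and 2 at 24 h it was 0.32. Unscaled, the differences of miR-689 and miR-680 were 1.32 and 0.98. miR-680 had log2 scaled signals of -4.08, -4.11 and -2.41 on the 24 h arrays and -1.35, -1.86 and -2.10 on the 36 h arrays. Its groups did not overlap, 2 of its 24 h arrays were at or near the floor, and the difference was 1.76 (SE 0.54, limma adjusted p = 0.189). miR-720, with the values 4.57, 4.57 and 5.37 on the 24 h arrays and 5.63, 5.76 and 5.47 on the 36 h arrays, differed by 0.78 (SE 0.27, limma adjusted p = 0.246) without overlap. miR-721, with the seed of miR-130, stood at -3.50, -3.96 and -2.80 on the 24 h arrays and -2.11, -2.47 and -2.47 on the 36 h arrays, again without overlap, and differed by 1.07 (SE 0.44, limma adjusted p = 0.318).

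Of 23 tested entries in this number range, 20 were higher at 36 h, against 61.5% of all miRNAs, and 3 lower. None passed the adjusted threshold, 9 had an unadjusted p under 0.05 (11.5% over all), and 5 had all 36 h arrays above all 24 h arrays (10.6% over all). The median log2 difference was 0.69, -0.0057 with no scaling and 0.25 without replicates 1 and 2 at 24 h. Over all miRNAs these medians were 0.15, -0.60 and -0.0039. The mean level was -2.38, -2.38 and -1.74 on the 24 h arrays and -1.15, -1.53 and -1.73 on the 36 h arrays. Replicate 3 at 24 h and replicate 3 at 36 h were nearly level, and the low arrays were replicates 1 and 2 at 24 h.

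miR-450a-3p, an entry of the X-linked cluster that also holds miR-322, had log2 scaled signals of -3.25, -3.04 and -1.29 on the 24 h arrays and -1.03, -1.12 and -1.24 on the 36 h arrays. The lowest 36 h array lay just above replicate 3 at 24 h, and the difference of 1.40 (SE 0.41, limma adjusted p = 0.167) was 0.16 without replicates 1 and 2. Of the miR-450a-3p probes, those at the floor at both times were not used. The other arm of its hairpin, miR-450a-5p, was above background on no array of either time. miR-322 itself had log2 scaled signals of -2.31, -2.16 and -1.53 on the 24 h arrays and -2.22, -1.78 and -1.89 on the 36 h arrays, with overlap and a difference of 0.036 (SE 0.29, limma adjusted p = 0.974). miR-671-5p and miR-188-5p, named after their values were seen, had larger differences than most, 1.76 and 1.51, with no overlap between the groups. Without replicates 1 and 2 at 24 h these were 0.62 and 0.49.

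Among miRNAs with a lower mean at 36 h, none reached an unadjusted p under 0.05. In that direction the 5 smallest belonged to miR-466f-5p, miR-346, miR-294, miR-764-5p and miR-206, with limma adjusted p from 0.572 to 0.613. miR-346, encoded in an intron of Grid1, had log2 scaled signals of -1.94, -1.32 and -4.05 on the 24 h arrays and -4.01, -3.19 and -3.17 on the 36 h arrays. Replicate 3 at 24 h was the lowest of all 6 arrays, and the difference was -1.02 (SE 0.59, limma adjusted p = 0.572). miR-294, of the cluster expressed in mouse embryonic stem cells, stood at -2.08, -2.34 and -4.07 on the 24 h arrays and -4.11, -3.30 and -3.52 on the 36 h arrays, with replicate 3 at 24 h again among the lowest arrays and a difference of -0.82. miR-764-5p, from an intron of Htr2c, stood at -1.76, -1.72 and -4.005 on the 24 h arrays and -3.94, -3.15 and -3.29 on the 36 h arrays, with replicate 3 at 24 h lowest, and differed by -0.96. miR-466f-5p differed by -0.56 and miR-206, a muscle miRNA, by -0.71. Without replicates 1 and 2 at 24 h all 5 differences were above 0, at 0.12 for miR-466f-5p, 0.60 for miR-346, 0.43 for miR-294, 0.55 for miR-764-5p and 0.40 for miR-206.

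The 5 entries whose 36 h arrays all lay below the 24 h arrays were miR-218, miR-338-3p, miR-467c, miR-467e and miR-7a, named for this property after their values were seen. miR-338-3p, an oligodendrocyte miRNA also found in neurons, had log2 scaled signals of -3.41, -3.24 and -3.28 on the 24 h arrays and -3.43, -3.77 and -3.66 on the 36 h arrays, and its difference was -0.31 (SE 0.23, limma adjusted p = 0.679). miR-7a, a neuronal and endocrine miRNA, had log2 scaled signals of -2.26, -2.03 and -2.44 on the 24 h arrays and -2.72, -3.10 and -2.78 on the 36 h arrays. The separation was complete, but the difference of -0.62 had a 95% interval of -2.04 to 0.80, since the spread is estimated over all 6 groups.

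The miRNAs of the Sfmbt2 intron (the families of miR-669, miR-467, miR-466 and miR-297), a large cluster that is particular to rodents, had the lowest list median. 17 of 20 tested entries were lower at 36 h, against 86 of 226 over all miRNAs, none passed, and the median log2 difference was -0.37. The mean level was -0.75, -0.86 and -1.71 on the 24 h arrays and -1.78, -1.19 and -1.37 on the 36 h arrays. Replicate 3 at 24 h was lower than 2 of the 36 h arrays, and without replicates 1 and 2 at 24 h the median was 0.25, with 15 of 20 entries higher. The largest positive difference of the list was that of miR-467a, 0.81 (SE 0.31, limma adjusted p = 0.309), which unscaled was -0.039 and in the deposited table -0.023. Its log2 scaled signals were -1.75, -1.16 and -0.16 on the 24 h arrays and -0.14, -0.20 and -0.31 on the 36 h arrays, so that only replicates 1 and 2 at 24 h were low.

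**Figure D3:**
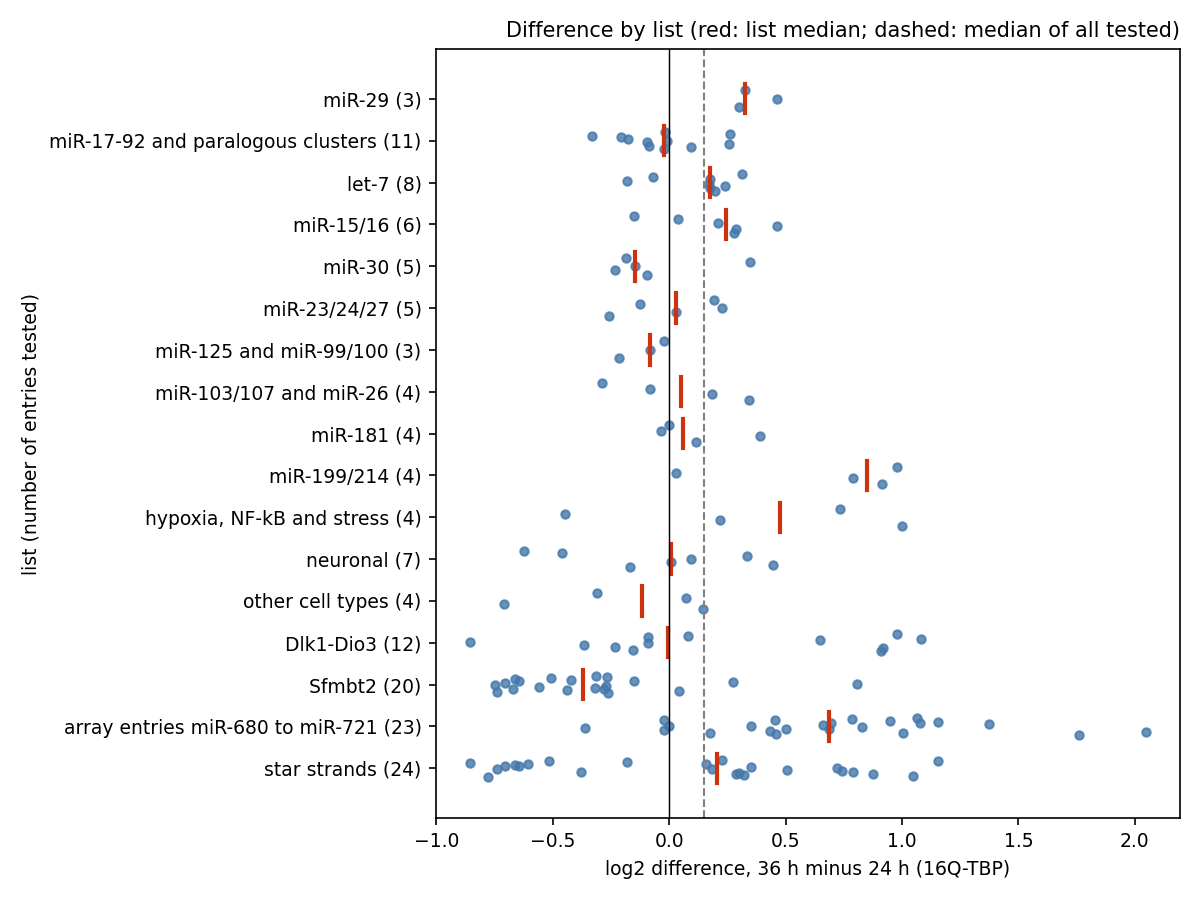
Log2 difference between 36 h and 24 h in 16Q-TBP for each tested miRNA (points), by list, with the number of entries tested in brackets; red bars are list medians, and the dashed line is the median of all miRNAs, 0.15. The list of miR-199 and miR-214 and the entries from miR-680 to miR-721 have medians of 0.85 and 0.69 and the Sfmbt2 list -0.37. With no scaling between arrays these are 0.0068, -0.0057 and -1.16, and the median of all miRNAs is -0.60.

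The abundant miRNA families showed differences that were small against the spread between arrays. miR-29 members, which repress collagens and DNA methyltransferases, were all higher on average, with differences of 0.30 for miR-29a, 0.47 for miR-29b and 0.33 for miR-29c (limma adjusted p from 0.721 to 0.820). miR-29b had log2 scaled signals of -0.22, 0.20 and 0.96 on the 24 h arrays and 0.72, 0.71 and 0.91 on the 36 h arrays. Replicate 3 at 24 h was the highest of all 6, so the groups overlapped. The list median of 0.33 was -0.52 with no scaling, -0.33 in the deposited table and -0.22 without replicates 1 and 2 at 24 h.

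miRNAs of the Myc-driven miR-17-92 cluster and its paralogs divided into 3 higher and 8 lower of 11, with a median of -0.021, which was 0.011 with the brightest probe of each miRNA. miR-92a differed by 0.26 and miR-18a by 0.26. In let-7, a family that favours differentiation, 6 of 8 were higher, with a median of 0.17, -0.61 with no scaling, -0.37 in the deposited table and -0.022 within the first slide. let-7i differed by 0.31 and let-7b by 0.17. In the miR-15/16 family, which restrains cyclins and Bcl2, 5 of 6 were higher, with a median of 0.24, -0.56 unscaled and -0.38 in the deposited table. miR-16 differed by 0.46 and miR-15a by 0.28. None of these entries passed the adjusted threshold or had an unadjusted p under 0.05.

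The mean level of the let-7 list was -2.14, -2.26 and -1.41 on the 24 h arrays and -1.99, -1.95 and -1.49 on the 36 h arrays. For the miR-17-92 list it was -1.68, -1.39 and -0.84 on the 24 h arrays and -1.38, -1.40 and -1.21 on the 36 h arrays. In both, replicate 3 was the highest 24 h array and lay above all 36 h arrays. For miR-29 the mean levels were -0.99, -0.73 and 0.037 on the 24 h arrays and -0.12, -0.36 and -0.11 on the 36 h arrays, in the same order.

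**Figure D4:**
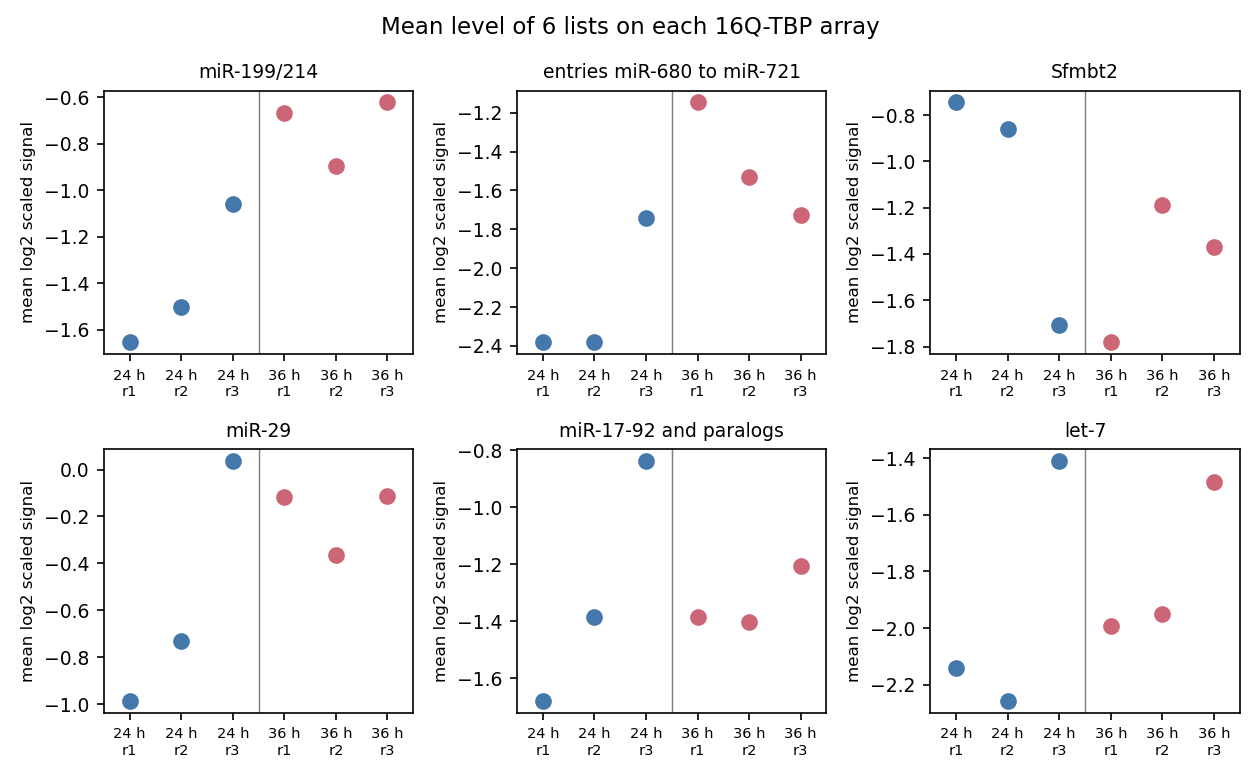
Mean log2 scaled signal of the tested entries of 6 lists on each 16Q-TBP array, 24 h (blue) and 36 h (red), replicates (r) 1 to 3, each panel with its own axis. Replicates 1 and 2 at 24 h lie on one side of replicate 3 in every panel, and 24 h and 36 h arrays are fully apart only for miR-199 with miR-214 and, by a small margin, for the entries from miR-680 to miR-721.

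The remaining lists had medians between -0.15 and 0.21, and no member passed. In miR-30, 1 of 5 were higher (median -0.15), with 0.35 for miR-30d and -0.19 for miR-30e. Among miR-125 and miR-99b, 0 of 3 were higher (median -0.081), with -0.22 for miR-125a-5p and -0.081 for miR-125b-5p. Both medians lay below the 0.15 of all miRNAs, as did those of the next 3 lists. In miR-23/24/27, 3 of 5 were higher (median 0.028), with 0.23 for miR-24 and 0.19 for miR-27b. Among miR-103, miR-107 and miR-26, 2 of 4 were higher (median 0.050), with 0.34 for miR-103 and -0.29 for miR-26b. In miR-181, 3 of 4 were higher (median 0.059), with 0.39 for miR-181b and 0.12 for miR-181a. The last 3 of these medians turned below 0 without scaling, for the deposited values, with quantile normalization and with the percentile over all probes, and that of miR-23/24/27 also with normexp correction (-0.0015) and within the first slide (-0.056). No miR-34 entry was bright enough to be tested.

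Neuronal miRNAs were divided: 4 of 7 tested entries were higher, with a median of 0.010, -0.83 unscaled, -0.34 for the deposited values, -0.24 with quantile normalization, -0.13 with the percentile over all probes and -0.069 within the first slide. miR-138, which limits dendritic spine size in rat neurons, differed by 0.45 and the activity-induced miR-212 by 0.33, with limma adjusted p of 0.673 and 0.747. Of the markers of other cell types, 2 of 4 tested were higher (median -0.12). In the imprinted Dlk1-Dio3 cluster, 6 of 12 were higher, with a median of -0.0048, 0.060 with normexp correction, 0.16 within the first slide and 0.52 over probes above background on all 6 arrays. Without replicates 1 and 2 at 24 h, 11 of 12 were higher (median 0.20). Its members miR-370 and miR-494 differed by 0.92 (SE 0.42, limma adjusted p = 0.368) and 1.08 (SE 0.52, limma adjusted p = 0.439), and by 0.19 and 0.0048 without replicates 1 and 2 at 24 h. Of the star strands, so named as the less abundant arms of their hairpins, 14 of 24 were higher (median 0.21, -0.51 unscaled and -0.19 in the deposited table). Detection did not always follow the name. miR-150* and miR-135a* were above background on all 6 arrays and miR-150 and miR-135a on none, while miR-17* and miR-17 both were on all 6. These flags come from different probes and do not measure which arm was more abundant.

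Detection by the scanner flag does not depend on the scaling. At 24 h, 209 entries were well above background on all 3 arrays, against 169 at 36 h, 168 of them on all 6. No entry was above background on all 3 arrays at 36 h and on none at 24 h. The converse held for 13 entries, among them miR-218, miR-18a*, miR-743b-5p, miR-26b, miR-805 and miR-132. miR-218, a motor-neuron miRNA, had log2 scaled signals of -3.81, -3.43 and -3.69 at 24 h and lay at the floor on all 36 h arrays. The differences of the 6 ranged from -0.17 for miR-132 to -0.46 for miR-218, and the mean 24 h levels over all their probes did not exceed the lowest signals called above background at 36 h, so no fold is given. Both the number of entries detected and the raw signal were higher at 24 h, and the part of the signal in the detection was not tested. Among the 36 h arrays the order differed. Replicate 3, on the second slide, had the highest scaling value (195) and the fewest entries above background (181).

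The result depended on which 24 h arrays were used. Without replicate 3 at 24 h, 8 miRNAs passed limma's adjusted threshold (3.54%) and 63 had an unadjusted p under 0.05 (27.9%), of which 42 were higher at 36 h and 21 lower. The 8 were miR-450a-3p, miR-689, miR-467a, miR-214, miR-146a, miR-680, miR-199a-5p and miR-720, with log2 differences from 1.05 for miR-720 to 2.91 for miR-689. Without replicates 1 and 2 at 24 h, none passed and 1 had an unadjusted p under 0.05 (0.442%), and the median over all miRNAs was -0.0039. In that fit the lone 24 h array is assumed to vary like the arrays of the other groups. Within the first slide, none of 226 passed (0%), 28 had an unadjusted p under 0.05 (12.4%), all higher at 36 h, and 211 of 226 miRNAs kept the sign of the main difference. With a floor 4 times higher or without a filter on dim probes, miR-214 alone passed (limma adjusted p = 0.0121 and 0.0338).

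Levels at 60 h in the same cells show where the leading miRNAs went later. miR-210 had a mean log2 scaled signal of -3.76 ± 0.20 at 24 h, -3.03 ± 0.26 at 36 h and -1.79 ± 0.072 at 60 h (SD, n = 3). From 36 h to 60 h it rose by 1.24 (SE 0.25, limma adjusted p = 0.0334), the only miRNA of 226 to pass in that comparison (0.442%). The call was lost without replicate 2 at 24 h (limma adjusted p = 0.0630), replicate 2 at 36 h (0.335) or replicate 3 at 36 h (0.192), and without replicates 1 and 2 at 24 h together (0.0551). It was also lost with the slide as a block (limma adjusted p = 0.220), with the brightest probe (0.193), with probes above background on all 6 arrays (0.258), with trend and robust eBayes (0.104), and with no scaling, the deposited table or normexp correction (0.369 to 0.999). miR-214 stood at -0.24 ± 0.13, miR-146a at -0.72 ± 0.19 and miR-199a-5p at 0.47 ± 0.068 at 60 h, each above its 36 h mean. Against 24 h, these 3, miR-210, miR-689 and miR-680 had all risen at 60 h by 1.15 (miR-199a-5p) to 3.27 (miR-689), with limma adjusted p from 0.000151 to 0.00928, among 80 of 226 miRNAs that passed (35.4%). No 60 h array shares a slide with a 24 h array. With the slide as a block the adjusted p of the 6 was 0.0678 to 0.147, and without replicates 1 and 2 at 24 h it was 0.0525 to 0.430, so none passed. Unscaled, or with the deposited table, miR-214, miR-146a and miR-199a-5p did not pass (limma adjusted p from 0.104 to 0.620). miR-199a-5p also lost its call without replicate 1 or replicate 2 at 24 h (limma adjusted p = 0.0629 and 0.0575). Normexp correction left only miR-689 of the 6 past the threshold. Both comparisons share arrays with that of 36 h and 24 h.

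The same interval in 59Q-TBP cells uses none of these arrays, but all 3 of its 24 h arrays lay on the first slide and all 3 of its 36 h arrays on the second, so time and slide move together there. In 59Q-TBP, too, none of 226 miRNAs passed between 36 h and 24 h (0%), and 64 had an unadjusted p under 0.05 (28.3%), of which 15 were higher at 36 h. The median log2 difference was -0.26, against 0.15 in 16Q-TBP, and 75 of 226 were higher (33.2%). The difference between the constructs was tested as an interaction in limma: none of 226 passed (0%), and 56 had an unadjusted p under 0.05 (24.8%), 21 of them with the more positive change in 59Q-TBP. Without replicate 3 of 16Q-TBP at 24 h, 55 passed (24.3%). With the slide as a block, whose step from the first to the second slide only the 16Q-TBP arrays at 36 h can estimate, the 59Q-TBP median was -0.16 and 25 miRNAs had an unadjusted p under 0.05 (11.1%). In that fit 25 had one for the difference between constructs (11.1%), and none passed in either.

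The smallest p-values of this interaction belonged to miR-29b, miR-130a, let-7i, miR-130b, miR-29a, miR-29c, miR-764-5p and miR-16. Over all miRNAs the median difference of changes, 59Q-TBP minus 16Q-TBP, was -0.63 rather than 0. List medians ran from -1.64 (miR-29) to 1.01 (Sfmbt2), with -1.19 for miR-125 and miR-99b and -1.03 for miR-30. miR-29b differed between 36 h and 24 h by 0.47 in 16Q-TBP and by -1.24 in 59Q-TBP, a difference of changes of -1.70 (SE 0.54, limma adjusted p = 0.170). Its mean level in 59Q-TBP was 0.79 ± 0.21 at 24 h and -0.45 ± 0.53 at 36 h (SD, n = 3). For miR-29a and miR-29c the difference of changes was -1.64 (SE 0.56, limma adjusted p = 0.170) and -1.51 (SE 0.52, limma adjusted p = 0.170). For miR-130a it was -1.14, for miR-130b -1.31, for let-7i -1.55 and for miR-16 -1.60. These 7 were all higher on average at 36 h in 16Q-TBP and lower in 59Q-TBP, but unscaled and in the deposited table all 7 were below 0 in 16Q-TBP too. With the slide as a block their differences of changes were -1.83 to -1.12 (limma adjusted p = 0.298). Within a slide the constructs cannot be compared over this interval, since no slide holds 59Q-TBP arrays of both times. miR-764-5p ran the other way, with 2.32.

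The miRNAs that led in 16Q-TBP had smaller differences in 59Q-TBP, but the difference of changes did not pass for any of them. They were picked out by their 16Q-TBP differences, which by itself favours smaller ones in 59Q-TBP. Over all 226 miRNAs the median difference of changes was -0.63. miR-214 differed by 0.30 in 59Q-TBP, with a difference of changes of -0.68 (SE 0.32, limma adjusted p = 0.191). miR-146a differed by -0.042, with -1.04 (SE 0.39, limma adjusted p = 0.170). miR-210 differed by -0.043, with -0.78 (SE 0.36, limma adjusted p = 0.191). One miRNA, miR-678, was fully separated between the times in both constructs and in opposite directions, by 0.51 in 16Q-TBP and -0.85 in 59Q-TBP, with a difference of changes of -1.36 (SE 0.64, limma adjusted p = 0.191).

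**Figure D5:**
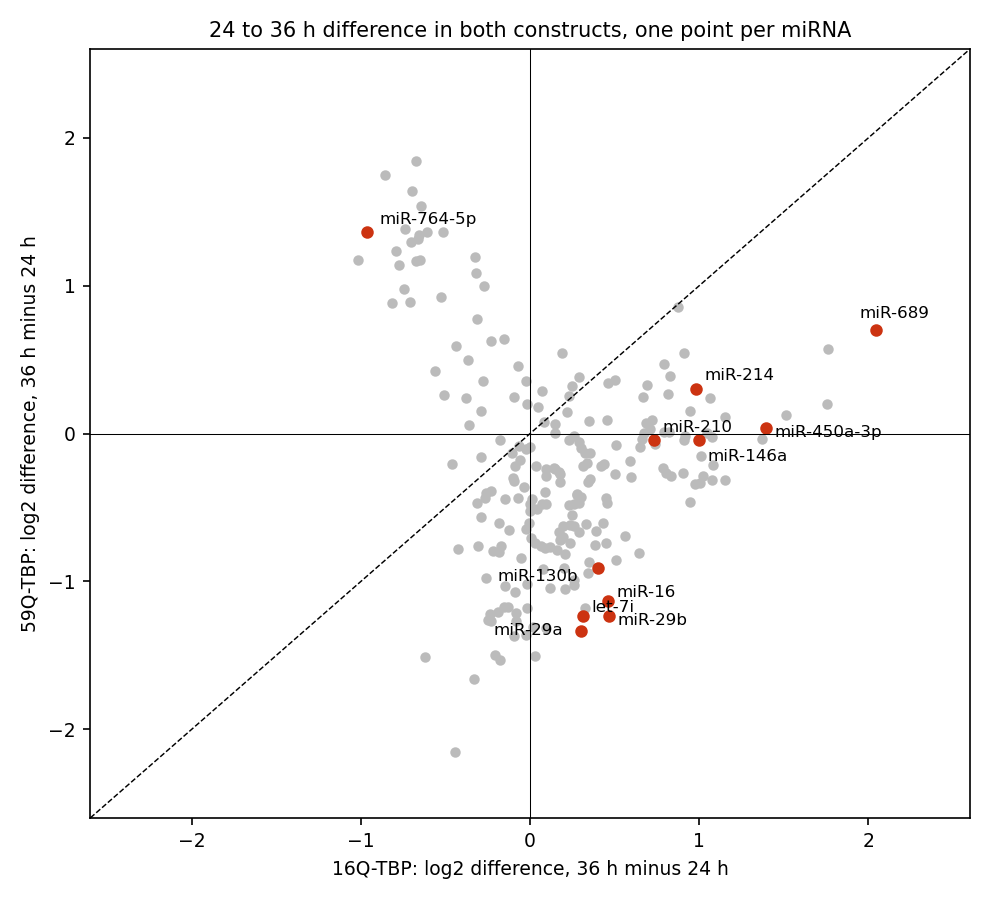
Log2 difference between 36 h and 24 h of the 226 miRNAs in 16Q-TBP (horizontal axis) and 59Q-TBP (vertical axis), one point per miRNA, with 11 named in red and the line of equal change dashed. miR-29a, miR-29b, miR-130b, miR-16 and let-7i lie to the right of 0 and below 0 (unscaled and in the deposited table, all 5 lie left of 0), miR-764-5p lies on the opposite side, and miR-214, miR-146a and miR-210 lie between -0.043 and 0.30 on the vertical axis.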

How the data were processed

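Scanner files hold spot intensity values that were deposited as Agilent Feature Extraction (version 9.5.1.1) wrote them. Per the file headers, its processed signal is background-subtracted and detrended. The deposited series table holds log2 values. These equal log2 of each spot's net signal on all 18 arrays, unscaled, and served as an alternative. Processed signals of unflagged spots were averaged per probe. Each array was scaled to its 75th percentile of the 290 mouse probes that cleared background on all 18 arrays (flag on at least 50% of spots). Values were floored at 0.0581 before log2. Probes that cleared background throughout at least 1 group were averaged per miRNA, which gave 557 probes and 226 miRNAs, 46 of them with 1 probe. No spot was saturated.

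Tests used limma 3.58.1 in R 4.3.3: 6 group means, 18 arrays, Benjamini-Hochberg adjusted p (12 residual degrees of freedom) over 226 miRNAs at 0.05. The procedure was tested on simulated data. The number of arrays limits the precision. miRNAs were named by rule: up to 12 past the threshold each way or else the 5 smallest p, the 2 largest moderated t per list, miR-322, miR-210, miR-146a, miR-214 and miR-29, the 8 smallest p between constructs, and up to 6 detected at 1 time only. Entries outside this rule, among them miR-720, miR-721 and miR-678, were named with their values known. The comparison, rule and lists were chosen with earlier results of these data known. Alternatives covered scaling, background, floor, filters, blocks, slides and left-out arrays. A planned check of sequence length and GC content was void, since 51 of 226 entries (22.6%) matched a RefSeq name exactly. Sequences come from RefSeq GRCm38.p6.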

Additional observations from a re-analysis of the deposited data

How the results depend on the processing

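For 36 h against 24 h, no miRNA passed under any alternative except 3: the floor 4 times higher and no filter on dim probes each gave 1, and leaving out each array in turn gave 0 to 8. The 8 arose without 24 h replicate 3. Within the first slide leaving out an array gave 0 to 22, and for the difference between constructs 0 to 55, each highest without that same array, and no other alternative run for them gave a call. Same-numbered deviations from the group means correlated at -0.56, 0.75 and -0.20. These values cannot show whether the replicate numbers pair the samples, since the 24 h deviations mostly set replicates 1 and 2 against replicate 3. A replicate block gave 0 calls in all 3 comparisons. Of 975 values of 47 named miRNAs under alternatives, 860 kept direction and side of the threshold, 9 passed it, 92 changed sign and 14 were exactly 0, all with a floor 4 times higher. For 9 miRNAs no value changed sign or was 0. The cause of these changes was not tested. With the percentile taken over all probes the log2 difference was -0.013 for miR-181a and -0.10 for miR-322. With the brightest probe of a miRNA the log2 difference was 0.0083 for miR-125b-5p. In the deposited log2 table the log2 difference was -0.33 for miR-29b, -0.31 for miR-29c, -0.51 for miR-92a, -0.43 for miR-18a, -0.30 for let-7i, -0.52 for let-7b, -0.33 for miR-16 and -0.34 for miR-15a. In the same setting it was -0.31 for miR-30d, -0.57 for miR-24, -0.52 for miR-27b, -0.35 for miR-103, -0.13 for miR-181b, -0.20 for miR-181a, -0.19 for miR-138 and -0.34 for miR-212. In the same setting it was -0.023 for miR-467a, -0.0049 for miR-214*, -0.46 for miR-322, -0.48 for miR-29a, -0.42 for miR-130a and -0.34 for miR-130b. Within the first slide the log2 difference was -0.000027 for miR-322. With a floor 4 times higher the log2 difference was -0.013 for miR-322. Without a filter on dim probes the log2 difference was -0.050 for miR-322. With no scaling between arrays the log2 difference was -0.38 for miR-29b, -0.52 for miR-29c, -0.58 for miR-92a, -0.59 for miR-18a, -0.53 for let-7i, -0.67 for let-7b, -0.38 for miR-16 and -0.56 for miR-15a. In the same setting it was -0.50 for miR-30d, -0.62 for miR-24, -0.65 for miR-27b, -0.50 for miR-103, -0.45 for miR-181b, -0.73 for miR-181a, -0.40 for miR-138 and -0.51 for miR-212. In the same setting it was -0.039 for miR-467a, -0.054 for miR-199b*, -0.10 for miR-214*, -0.81 for miR-322, -0.54 for miR-29a, -0.46 for miR-130a and -0.44 for miR-130b. With normexp correction the log2 difference was 0.088 for miR-805 and 0.0082 for miR-132. With quantile normalization the log2 difference was -0.054 for miR-181a and -0.14 for miR-322. With the slide as a block the log2 difference was -0.000027 for miR-322. Without 24 h replicates 1 and 2 the log2 difference was 0.12 for miR-466f-5p, 0.60 for miR-346, 0.43 for miR-294, 0.55 for miR-764-5p, 0.40 for miR-206, -0.18 for miR-29b, -0.22 for miR-29c and -0.20 for miR-92a. In the same setting it was -0.18 for miR-18a, -0.086 for let-7b, -0.26 for miR-16, -0.34 for miR-15a, -0.059 for miR-30d, -0.28 for miR-24, -0.20 for miR-27b and -0.17 for miR-103. In the same setting it was -0.42 for miR-181a, -0.12 for miR-138, -0.21 for miR-212, -0.059 for miR-467a, -0.43 for miR-322, -0.30 for miR-29a, -0.18 for miR-130a and -0.19 for miR-130b. With single arrays left out, sign changes left ranges of -0.0036 to 0.31 for let-7b, -0.0074 to 0.48 for miR-24, -0.27 to 0.15 for miR-125b-5p, -0.20 to 0.39 for miR-181a, -0.12 to 0.27 for miR-322 and -0.38 to 0.15 for miR-132. The median over all miRNAs was -0.60 with no scaling, -0.33 in the deposited table, 0.0012 with quantile normalization and 0.15 in the main setting. Small-RNA control probes were higher at 36 h for 24 of 24 after scaling and for 0 of 24 with no scaling. Alternatives for list medians under blocks and the first slide, for the median of all miRNAs, for the first slide, for 60 h and, with the slide as a block, for 59Q-TBP and single miRNAs of the difference between constructs were chosen after seeing the data.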
